A study of Mus musculus with 8 samples.

Results

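The comparison described here set primary mouse lung fibroblasts given recombinant TWEAK at 10 ng/ml against untreated fibroblasts, by RNA sequencing of total RNA. Its members were all genes with a symbol in the libraries labelled TWEAK 10 ng/ml (called TWEAK10 here) and untreated, 4 of the 8 samples of the study. Of 52110 rows with a symbol, 17360 had enough counts to be tested. The cells of all groups were wild type, grown in DMEM with fetal bovine serum and antibiotics, and collected at 48 hours. The other samples received 30 or 100 ng/ml (TWEAK30 and TWEAK100), and each of the 4 groups held 2 libraries. The labels do not say whether these libraries came from separate cultures or animals, so each p-value reflects how far the libraries of a group differ, and that spread may be technical. No dose below 10 ng/ml, vehicle or other time point is among the samples, and the purity of the recombinant protein is not given in the labels.

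TWEAK, the product of Tnfsf12†, belongs to the TNF superfamily of cytokines. Its receptor is the small membrane protein Fn14, encoded by Tnfrsf12a, which has no death domain and recruits TRAF adaptors with their partner ubiquitin ligases, the cIAPs. Loss of cIAPs from the cytosol stabilises the kinase NIK, which starts the non-canonical NF-kB pathway through processing of the Nfkb2† product, while a faster canonical branch frees RelA from its inhibitors. In lung and other tissues Fn14 is known to rise in injured epithelium and mesenchyme, and fibroblasts are among the cells that respond to TWEAK.

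Libraries held 37278985 to 50810783 counts in rows with a symbol, so that 3 counts stood for 0.0599 to 0.0801 CPM, the count scaled to the size of the library. Levels below are TMM-scaled CPM of single libraries, given in replicate order, and log2 changes are those of edgeR with an approximate standard error (SE). A gene "rose", "fell" or "went" from one level to another where its edgeR adjusted p was under 0.05. A dagger (†) marks a gene with an exon that overlaps an exon of another annotated gene, whose count is therefore uncertain. Libraries of 1 group differed by more than sampling noise in all 4 groups (chi-square over its degrees of freedom 23.6 to 29.1).

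The labelled doses and the positions of the libraries did not follow the same order. On the first principal component of log2 CPM, which held 49.7% of the variance, the untreated libraries lay at -67.56 and -66.54 and the TWEAK10 libraries at 61.44 and 62.57, at the far end. The TWEAK30 libraries lay at 48.66 and 35.34, and the TWEAK100 libraries, labelled with the highest dose, lay nearest to the untreated ones at -36.19 and -37.71. In the numbered columns of the deposited table the treated groups stand in the order 100, 30 and 10 ng/ml. An exchange of dose labels and a smaller response at the higher dose cannot be told apart from these files, so TWEAK10, TWEAK30 and TWEAK100 stand for the labels only. The second component set the TWEAK10 libraries apart from each other, at 35.37 and -28.17.

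The cells carried fibroblast markers in every library. Of 12 such markers none was under 1 CPM, and their summed level was 34662 and 33496 CPM in the untreated and 18518 and 19160 CPM in the TWEAK10 libraries. Of those markers 7 fell and 3 rose. Markers of other cell types were summed in the same way, and the sums were not tested. Epithelial markers reached 3.92 and 4.64 CPM without and 6.79 and 8.02 CPM with TWEAK, with Epcam, Sftpb and Nkx2-1 at 0 in all 4 libraries. Endothelial markers reached 7.31 and 7.42 CPM without and 6.81 and 7.97 CPM with TWEAK. Macrophage and myeloid markers reached 34.3 and 30 CPM without and 63.4 and 72.5 CPM with TWEAK. Of these, 3 of 11 tested rose, Cd14 among them (17.9 and 17.7 against 38.7 and 44.3 CPM), and 10 of 14 stayed under 1 CPM. The defining pan-leukocyte marker Ptprc stood at 0.0599 and 0 CPM without and 0 and 0 CPM with TWEAK. Lymphocyte markers summed to 0.561 CPM or less in each of the 4 libraries. Mesothelial markers reached 24 and 23.3 CPM without and 11 and 8.44 CPM with TWEAK, and 5 fell. Smooth muscle and pericyte markers reached 182 and 166 CPM without and 210 and 185 CPM with TWEAK. Of 9 of them tested 3 rose and 4 fell. Schwann and neural markers reached 76.2 and 71.5 CPM without and 73.9 and 58.3 CPM with TWEAK, and none was called. The part of these cell types in the changes below was not tested. In bulk RNA, fewer cells of a type and less RNA per cell cannot be told apart.

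Between untreated and TWEAK10 libraries the test called 5075 of the 17360 genes, which is 29.2% of those tested. The rises numbered 2610 (15%) and the falls 2465 (14.2%), and the median log2 change of all tested genes was 0.01. Counts of list members given below are to be set against these shares. Falls numbered 1621 without untreated replicate 1. Most changes were small: the median fold of a rise was 1.69 and that of a fall 1.66. At least 2-fold rises numbered 1027 (5.92% of tested genes) and at least 2-fold falls 892 (5.14%), and at 8-fold or more there were 265 rises and 131 falls. In every called gene both TWEAK10 libraries lay on the same side of both untreated libraries, as they did in 65.6% of all tested genes. Genes that rose at least 2-fold held 2.02% and 2.03% of the counts in the untreated libraries and 6.87% and 7.08% in the TWEAK10 libraries. Those that fell at least 2-fold held 9.78% and 9.59% before and 3.24% and 3.08% after, measured on the genes chosen by that change. The share of genes called grew with the level, from 7.44% of genes under 1 CPM to 50% of genes at 100 CPM or more. In the plot of change against level, the slanted lines of points at the left are genes with 0 counts in 1 of the groups, whose fitted change depends on the prior count.

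**Figure D1:**
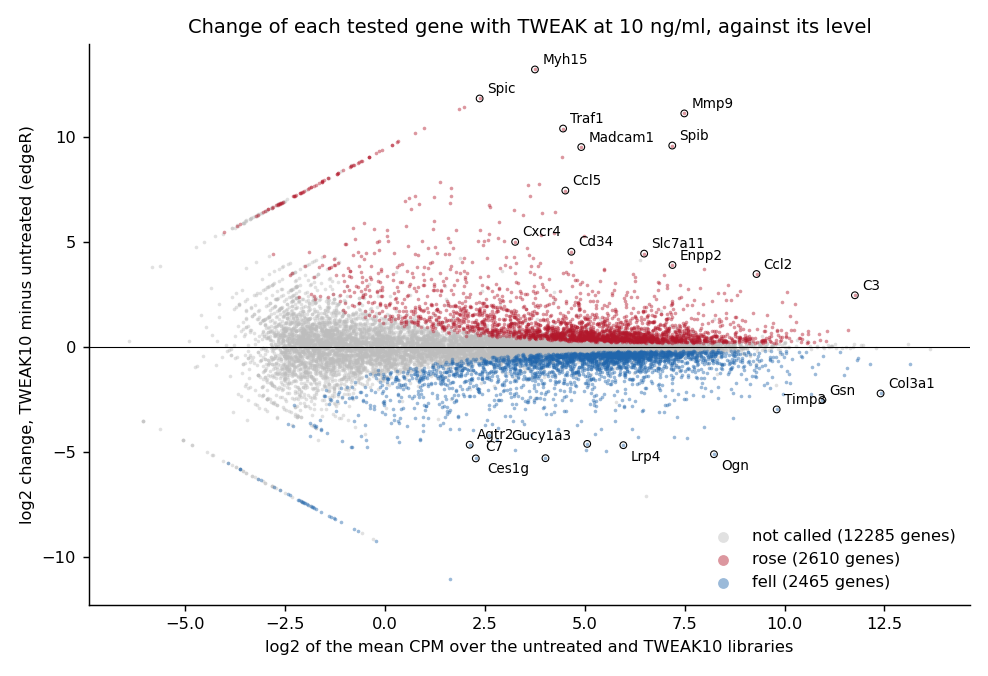
Change of each of the 17360 tested genes. The x axis is the log2 of the mean CPM over the 4 libraries and the y axis the edgeR log2 change, TWEAK10 minus untreated; red genes rose (2610), blue genes fell (2465) and grey genes were not called. Circled genes are named, and genes with 0 counts in all 4 libraries are not drawn. Among the circled genes, Mmp9 stands at 11.10 and C7 at -5.31.

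The largest rises were of genes with almost no counts in untreated cells. Mmp9 (chr2:164940780-164955850 on mm10), which encodes a gelatinase, stood at 0.18 and 0.14 CPM in the untreated and 337 and 380 CPM in the TWEAK10 libraries. Spic, an Ets-family transcription factor gene known from macrophages of the spleen, had 0 counts in both untreated libraries and 11.2 and 9.38 CPM with TWEAK, at least 341-fold higher. The cyclic ADP-ribose hydrolase gene Bst1†, known from stroma of bone marrow and lymphoid tissue, went from 0 and 0.161 to 43.8 and 42.7 CPM, a call that limma-voom did not make (adjusted p = 0.0783). The groups lay far apart in all 3 genes. Further members of this set are known from immune cells. Il2rg†, the common gamma chain of interleukin receptors, stood at 0.38 and 0.522 CPM without and 39 and 36.8 CPM with TWEAK (log2 change 6.39 ± 0.26 SE, edgeR adjusted p = 4.17e-06). Csf2rb†, the shared beta chain of the GM-CSF, interleukin-3 and interleukin-5 receptors, went from 0.499 and 0.221 to 24.8 and 35.4 CPM (log2 change 6.37 ± 0.42 SE, edgeR adjusted p = 2.59e-05). The Toll-like receptor gene Tlr1 went from 0.14 and 0.1 to 12 and 12.5 CPM (log2 change 6.64 ± 0.42 SE, edgeR adjusted p = 2.07e-05). Acpp, an acid phosphatase gene, went from 0.14 and 0.281 to 8.52 and 11.6 CPM. Flrt3, a membrane protein gene of axon guidance, rose from a somewhat higher base of 1.66 and 1.5 to 58.6 and 64.4 CPM (log2 change 5.28 ± 0.25 SE, edgeR adjusted p = 6.80e-06). Upp1, the uridine phosphorylase gene, rose from 0.46 and 0 to 14.6 and 13.7 CPM.

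Several growth factor, receptor and adaptor genes were likewise near 0 in untreated cells. Ngfr, a receptor of neurotrophins of the TNF receptor superfamily, had 3 counts over both untreated libraries and 6.09 and 6.36 CPM with TWEAK, 208-fold higher (95% counting interval 70.6 to 1010). Pdgfb, a ligand of the PDGF receptors, had 2 counts without TWEAK and 4.6 and 5.78 CPM with it, 261-fold higher (95% counting interval 71.8 to 2162). Nos2, the inducible nitric oxide synthase, had 2.91 and 2.64 CPM in the TWEAK10 libraries and was 138-fold higher (95% counting interval 37.8 to 1149). The chemokine receptor gene Ccr3 reached 2.62 and 4.54 CPM and was 121-fold higher (95% counting interval 41.1 to 591). Adamts13, the von Willebrand factor protease, had 0 counts without TWEAK and 3.58 and 4.28 CPM with it, at least 132-fold higher. The potassium channel gene Kcng4 had 0 counts and then 3.77 and 2.97 CPM, at least 111-fold higher. Counting intervals and bounds cover counting error only, and the bounds take 3 counts over both untreated libraries as the floor. In the opposite direction 1 gene met the same rule, the predicted gene Gm10260†, at 9.27 and 2.99 CPM in the untreated libraries and 0 in the TWEAK10 libraries, yet at 11.3 and 13.1 CPM in those labelled 30 ng/ml. That call was not made by limma-voom (adjusted p = 0.072).

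The receptor of TWEAK rose little. Tnfrsf12a stood at 18.6 and 19.7 CPM in the untreated and 33.3 and 32.3 CPM in the TWEAK10 libraries, 1.71-fold higher. The gene of the ligand itself, Tnfsf12†, lay at 33.4 and 33.6 CPM without and 25.6 and 23.6 CPM with TWEAK and fell by 0.44 on the log2 scale, with edgeR adjusted p values of 0.0726 without untreated replicate 1 and 0.0739 without untreated replicate 2 and 0.0901 without TWEAK10 replicate 2. The proposed scavenger receptor Cd163 was not tested, with 0 counts in all 8 libraries. Of the TRAF and cIAP genes 6 of 9 rose and none fell, with a median log2 change of 0.80. Traf1, an adaptor without a ligase domain, showed 0.0599 and 0 CPM without and 45.2 and 42.5 CPM with TWEAK. Birc2, which encodes cIAP1, went from 56.4 and 52.4 to 268 and 301 CPM (5.23-fold, log2 change 2.39 ± 0.11 SE, edgeR adjusted p = 7.00e-06). Its paralog Birc3, which encodes cIAP2, went from 18.5 and 18.4 to 78.5 and 78 CPM (4.24-fold). Both cIAP genes were at least 4-fold higher in each TWEAK10 library than in either untreated library. Traf4 (41.2 to 77.8 CPM as group means) and Traf5† (25.8 to 44 CPM) rose less than 2-fold. Traf6, the adaptor of canonical signalling, was not called at 30.7 and 31.9 CPM without and 28 and 30.4 CPM with TWEAK, nor was Xiap, a caspase inhibitor, at 83.9 and 83.5 and 62.7 and 70.7 CPM.

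The kinases of the pathway were called at 20%, near the 29.2% of all tested genes. Of 10 tested, 8 were not called, with a median log2 change of -0.05. Map3k14†, which encodes NIK, went from 40.1 and 36.9 to 52 and 51.3 CPM and rose by 0.42 ± 0.09 on the log2 scale, a call with edgeR adjusted p of 0.0747 without untreated replicate 2 and 0.0538 without TWEAK10 replicate 1. Chuk, which encodes the IKK-alpha kinase, went from 81.7 and 81.5 to 67.4 and 72.2 CPM, and its fall was lost without any 1 of the 4 libraries (edgeR adjusted p 0.149 without untreated replicate 1 and 0.145 without untreated replicate 2 and 0.174 without TWEAK10 replicate 1 and 0.0564 without TWEAK10 replicate 2). DESeq2 did not call Chuk either, nor did edgeR with library totals (adjusted p = 0.0737), without a filter on low counts (0.0532) or on the 2 groups alone (0.0798). Ikbkb, the gene of IKK-beta, lay at 51.2 and 54.7 CPM without and 51.8 and 60.7 CPM with TWEAK, and Map3k7, the gene of TAK1, at 123 and 119 CPM without and 132 and 133 CPM with TWEAK. The groups overlapped for Ikbkb and lay close for Map3k7.

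Of the NF-kB subunits 3 of 5 rose. Nfkb2†, the p100 precursor of the non-canonical branch, went from 61.5 and 59.3 to 408 and 422 CPM (6.87-fold, log2 change 2.78 ± 0.07 SE, edgeR adjusted p = 1.27e-06). Its partner Relb went from 17.6 and 18 to 77.7 and 65.1 CPM (4.01-fold, log2 change 2.00 ± 0.12 SE, edgeR adjusted p = 1.86e-05). Nfkb1, the p105 precursor, rose 1.55-fold, from 101 and 94.1 to 148 and 154 CPM. The groups did not overlap for Rela (74.2 and 81.4 against 103 and 91.8 CPM) or Rel (13.4 and 12.1 against 15.9 and 16.7 CPM) either, but neither was called (edgeR adjusted p = 0.0803 and 0.0929).

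All 6 genes of the IkB family, inhibitors of NF-kB and nuclear members alike, were called, 5 higher and 1 lower. Nfkbie, which encodes IkB-epsilon, went from 6.43 and 6.84 to 85.1 and 81 CPM (12.5-fold, log2 change 3.64 ± 0.16 SE, edgeR adjusted p = 4.76e-06). Nfkbia, which encodes IkB-alpha, went from 29 and 30.9 to 196 and 198 CPM (6.57-fold, log2 change 2.72 ± 0.13 SE, edgeR adjusted p = 6.80e-06). Nfkbib† (21.9 to 37.9 CPM) and Bcl3†, an atypical family member of the nucleus (35.8 to 62.8 CPM), rose less than 2-fold. Nfkbiz, a nuclear member that serves as a cofactor for secondary response genes such as Il6, moved the other way, from 111 and 124 to 51.4 and 67.5 CPM (1.98-fold lower, log2 change -0.99 ± 0.13 SE, edgeR adjusted p = 0.00108). Of the ubiquitin editors and other feedback genes, 6 of 8 rose and none fell. Tnip3, a ubiquitin-binding inhibitor, had 0 counts without TWEAK and 7.45 and 8.18 CPM with it, at least 261-fold higher. Tnfaip3, which encodes the editing enzyme A20, went from 6.11 and 6.56 to 54.5 and 54 CPM (8.56-fold, log2 change 3.10 ± 0.21 SE, edgeR adjusted p = 2.99e-05). Tnip1, the binding partner of A20, went from 54.7 and 56 to 284 and 264 CPM (4.95-fold, log2 change 2.31 ± 0.12 SE, edgeR adjusted p = 1.09e-05). The deubiquitinase gene Cyld rose 1.4-fold, and Tnip2 was not called at 22.8 and 24.2 CPM without and 21.2 and 23.5 CPM with TWEAK. In the plot of these genes by library, Traf1, Tnip3, Nfkbie and Nfkb2† are among the genes whose groups lie far apart, and Rela, Rel and the kinases among those whose groups lie close.

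**Figure D2:**
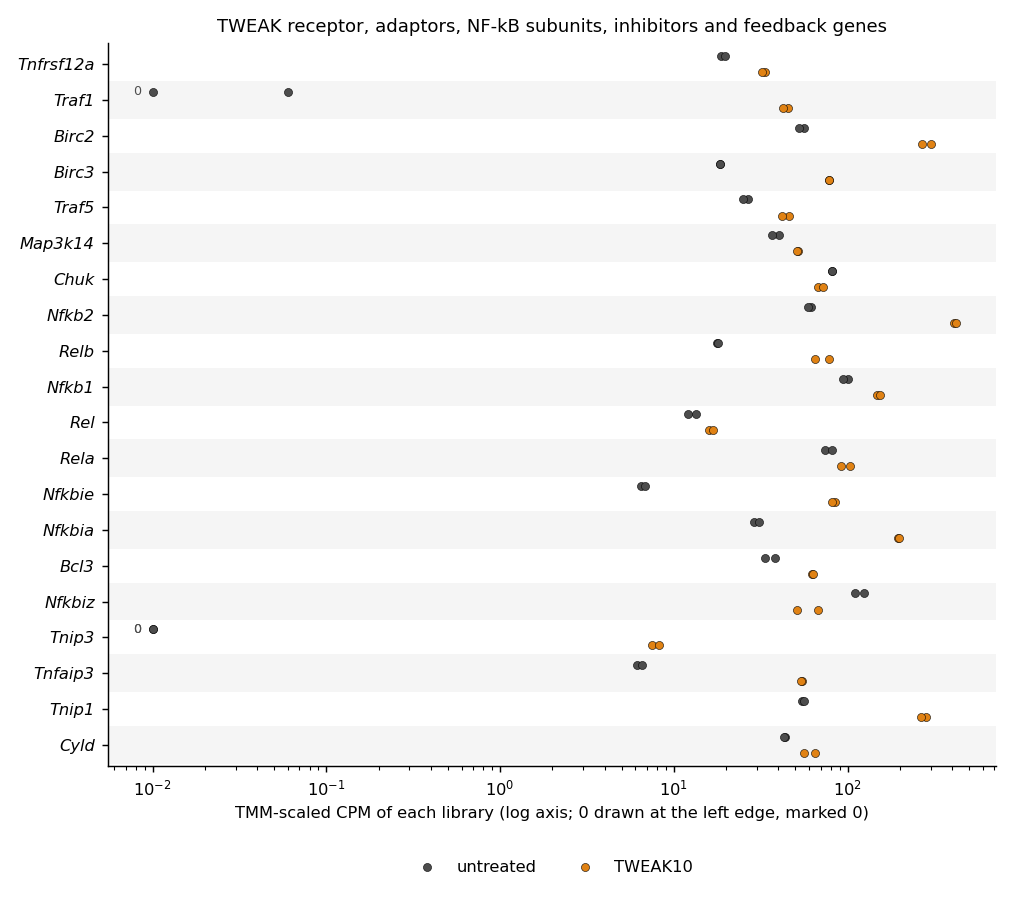
TMM-scaled CPM (x axis, log) of 20 genes of the TWEAK receptor and NF-kB pathway in each untreated (grey) and TWEAK10 (orange) library; each point is 1 library, and 0 is drawn at the left edge. Nfkb2 lies at 59.3 to 61.5 CPM in the untreated and 408 to 422 CPM in the TWEAK10 libraries, while Rela lies at 74.2 to 81.4 and 91.8 to 103 CPM.

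The promoters of these genes were searched for the letters of NF-kB (kB) sites, since the factors that rose bind them. RefSeq windows of 250 bases before to 50 after a start on GRCm38.p6 (the mm10 assembly) matched 11452 tested genes by symbol, with the window of the first listed start used where a gene has several. The motif was GGGNNTTTC or GGGNNTTCC on either strand, and these overlap in a full site. It was present in 9.54% of all 27025 windows and in 10.8% of those of tested genes. It was present in 22.6% of the 186 windows of genes that rose 8-fold or more, 14.6% of the 727 of genes that rose 2-fold or more, 10.7% of the 7747 of genes not called, and 8.83% of the 589 of genes that fell 2-fold or more. The AP-1 letters TGANTCA were in 14.5%, 8.12%, 5.21% and 6.28% of the same classes, against 7.93% of all windows and 5.22% of those of tested genes. Letters of E2F sites (TTTGGCGC or TTTCCCGC) were in 3.23%, 3.44%, 3.19% and 1.02%, against 1.63% of all windows and 2.99% of those of tested genes. The PU box of Ets factors (GAGGAAGT) was in 4.3%, 3.71%, 2.84% and 1.87%, against 3.28% and 2.86%. G and C bases made up 55.1%, 59%, 60.3% and 59.9% of these windows. The shares are descriptions without a test, and a match is no evidence of binding.

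The 250 bases before the start of Nfkb2† and Madcam1 are shown whole because these genes rose strongly and hold more than 1 match, with the matching letters in capitals. They lie at chr19:46304487-46304736 (+ strand) and chr10:79664309-79664558 (+ strand), and run 5′ to 3′ on the strand of the gene.
Nfkb2: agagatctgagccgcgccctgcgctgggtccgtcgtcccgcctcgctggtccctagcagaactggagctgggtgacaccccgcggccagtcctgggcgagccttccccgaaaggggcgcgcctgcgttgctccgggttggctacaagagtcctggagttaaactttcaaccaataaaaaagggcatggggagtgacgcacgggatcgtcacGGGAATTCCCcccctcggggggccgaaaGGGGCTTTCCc
Madcam1: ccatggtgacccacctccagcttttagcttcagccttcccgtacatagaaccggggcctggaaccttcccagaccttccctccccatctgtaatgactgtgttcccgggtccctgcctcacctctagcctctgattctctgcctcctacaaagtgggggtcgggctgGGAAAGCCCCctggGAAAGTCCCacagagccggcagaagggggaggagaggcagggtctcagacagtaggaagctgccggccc

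In Nfkb2† the runs of capitals began 39 and 11 bases before the start, and in Madcam1 they began 83 and 69 bases before it. Shorter stretches, of the match with up to 15 bases on either side, are given for further genes that rose.
Nfkbie, chr17:45555580-45555618 (+ strand): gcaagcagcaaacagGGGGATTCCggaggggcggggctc
Nfkbia, chr12:55492652-55492690 (- strand): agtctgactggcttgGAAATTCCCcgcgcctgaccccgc
Tnip1, chr11:54962973-54963012 (- strand): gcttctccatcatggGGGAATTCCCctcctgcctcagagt
Tnip3, chr6:65590330-65590368 (+ strand): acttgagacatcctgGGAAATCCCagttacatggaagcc
Tnfaip3, chr10:19015398-19015437 (- strand): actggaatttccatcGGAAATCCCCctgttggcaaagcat
Rhbdl2, chr4:123787784-123787823 (+ strand): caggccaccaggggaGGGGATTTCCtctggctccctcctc
Ccl9, chr11:83578647-83578686 (- strand): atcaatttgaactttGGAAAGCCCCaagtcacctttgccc
Cxcl10, chr5:92348969-92349007 (- strand): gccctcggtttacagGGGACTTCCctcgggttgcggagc
Casp4, chr9:5308741-5308780 (+ strand): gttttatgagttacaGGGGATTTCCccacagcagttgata

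The same letters stood near the start of genes that were not called or that fell, of which 4 are shown for comparison.
Rela, chr19:5637429-5637467 (+ strand): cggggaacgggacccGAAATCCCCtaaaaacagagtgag
Rel, chr11:23771036-23771075 (- strand): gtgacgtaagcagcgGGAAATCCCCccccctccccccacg
Il6, chr5:30013055-30013093 (+ strand): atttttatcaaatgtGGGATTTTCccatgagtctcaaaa
Rspo1, chr4:124986413-124986451 (+ strand): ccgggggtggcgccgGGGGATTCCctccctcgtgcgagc

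Rela and Rel carried the match and were not called, and Il6 and Rspo1 carried it and fell. Traf1 and Birc3 had no match within their windows, which says only that these letters are not in that stretch.

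Among the other TNF receptors, 7 of 15 rose and 2 fell. Tnfrsf9, the costimulatory receptor 4-1BB, went from 2.96 and 3.39 to 16.1 and 16.5 CPM (5.13-fold). The death receptor gene Fas went from 32.1 and 37.9 to 110 and 106 CPM (3.08-fold). Tnfrsf10b, the TRAIL receptor, went from 37.8 and 42.9 to 113 and 112 CPM (2.78-fold, log2 change 1.48 ± 0.08 SE, edgeR adjusted p = 1.42e-05). Tnfrsf1b, which encodes TNF receptor 2, rose 1.58-fold from 143 and 143 to 228 and 225 CPM. Ltbr, the lymphotoxin-beta receptor that also feeds the non-canonical branch, fell from 201 and 186 to 142 and 140 CPM (log2 change -0.46 ± 0.07 SE, edgeR adjusted p = 0.00161). Cd40 lay at 0.919 and 1.59 CPM without and 2.67 and 1.89 CPM with TWEAK and was not called. Of 9 ligands tested, Tnfsf11, which encodes RANKL, went from 3.28 and 3.97 to 19.3 and 25.6 CPM (6.18-fold), while Tnfsf15 fell from 10.7 and 13.8 to 1.92 and 2.24 CPM (5.85-fold). Tnfsf8, the CD30 ligand, went from 6.43 and 8.29 to 2.97 and 2.34 CPM. Tnf and Lta had too few counts to be tested.

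Several genes of lytic cell death rose. Of 18 effectors, 6 rose and 1 fell. Gsdmd, whose product forms membrane pores once cut, went from 26.8 and 28.5 to 83.8 and 79 CPM (2.94-fold, log2 change 1.56 ± 0.09 SE, edgeR adjusted p = 1.23e-05). Casp4, the mouse inflammatory caspase-11 that cuts it, went from 20.2 and 21.1 to 56.1 and 54.7 CPM (2.68-fold). The necroptosis genes Mlkl (17.1 and 18.4 to 34.2 and 37.4 CPM) and Ripk3 (39.4 and 33.7 to 63.7 and 62.2 CPM) rose as well. The caspase-8 inhibitor Cflar was not called at 180 and 182 CPM without and 190 and 195 CPM with TWEAK. Of 14 Bcl2† family members 3 rose and 3 fell. Bid†, the link from caspase-8 to the mitochondrion, rose 2.33-fold, from 27.3 and 26 to 65.7 and 58.5 CPM. Mcl1, an inhibitor of apoptosis, was not called at 185 and 197 CPM without and 192 and 201 CPM with TWEAK.

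Chemokines of the CC class rose without exception among those called, 6 of 10 tested. Ccl2, the main monocyte attractant, went from 91.6 and 118 to 1199 and 1104 CPM (11-fold), and per kilobase of exon from 92.2 to 1012 CPM as group means. Its neighbour Ccl7 went from 80.7 and 95.4 to 685 and 685 CPM (7.78-fold, log2 change 2.96 ± 0.14 SE, edgeR adjusted p = 7.00e-06). Ccl8 went from 52.4 and 54.3 to 208 and 191 CPM (3.74-fold). Ccl9 was nearly absent before at 0.839 and 0.622 CPM and reached 29.2 and 28.7 CPM (log2 change 5.30 ± 0.32 SE, edgeR adjusted p = 1.88e-05). Ccl5, the T-cell and monocyte attractant RANTES, reached 47.2 and 43.3 CPM from 0.26 and 0.261 CPM. CXC and CX3C chemokines divided, 6 of 12 higher and 4 lower. Cxcl16†, a membrane-bound ligand of CXCR6, went from 38.2 and 37.8 to 304 and 288 CPM (7.79-fold, log2 change 2.96 ± 0.08 SE, edgeR adjusted p = 1.30e-06). Cxcl10†, a ligand of CXCR3, went from 3.16 and 4.74 to 44.1 and 42.8 CPM (11-fold). The neutrophil attractant Cxcl5 fell from 54.9 and 67 to 21.7 and 25.5 CPM (2.58-fold, log2 change -1.37 ± 0.18 SE, edgeR adjusted p = 0.000881). Cxcl14 went from 69.5 and 70.3 to 39.6 and 41.7 CPM (1.72-fold). Cxcl12, the ligand of CXCR4 and the member with the highest untreated level per kilobase of exon, went from 430 and 467 to 351 and 322 CPM, a fall with edgeR adjusted p of 0.067 without untreated replicate 2 and 0.064 without TWEAK10 replicate 2. Cxcr4 itself went from 0.539 and 0.622 to 18.1 and 18.9 CPM (31.7-fold, log2 change 4.99 ± 0.19 SE, edgeR adjusted p = 3.23e-06). Ccr1, a receptor of several CC chemokines, went from 0.499 and 0.863 to 5.88 and 9.45 CPM (11.2-fold). Cxcl1, a neutrophil attractant often induced by TNF, lay at 9.33 and 16 CPM without and 19 and 24.3 CPM with TWEAK and was not called.

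In the interleukin-1 family an alarmin, its receptor and an antagonist rose. Il33 went from 19.6 and 23.3 to 211 and 250 CPM (10.8-fold). Il1rl1, which encodes the interleukin-33 receptor ST2, went from 11.2 and 12.3 to 88.8 and 104 CPM (8.2-fold, log2 change 3.04 ± 0.18 SE, edgeR adjusted p = 1.51e-05). Il1rn, the interleukin-1 receptor antagonist, went from 10.3 and 6.66 to 44.1 and 57.3 CPM (5.98-fold, log2 change 2.58 ± 0.23 SE, edgeR adjusted p = 0.000105). The signalling receptor Il1r1 lay at 381 and 388 CPM without and 379 and 413 CPM with TWEAK and was not called. In all, 5 of 10 rose and none fell.

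The interleukin-6 family mostly fell, 8 of 13 against 2 that rose, with a median log2 change of -0.62. Il6 itself fell from 28 and 30.9 to 8.09 and 7.3 CPM (3.83-fold, log2 change -1.94 ± 0.26 SE, edgeR adjusted p = 0.000939). Its receptor chain Il6ra† fell from 50.7 and 52.3 to 26.6 and 25.4 CPM (1.98-fold). The oncostatin M receptor Osmr went from 733 and 719 to 587 and 597 CPM (1.23-fold). Lif, the leukaemia inhibitory factor, rose against the others, from 7.67 and 7.79 to 51.1 and 66.4 CPM (7.6-fold, log2 change 2.93 ± 0.14 SE, edgeR adjusted p = 7.56e-06). Il11ra1†, the receptor of interleukin-11, fell 1.54-fold, from 75.9 and 69.2 to 48.2 and 46.2 CPM.

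Haematopoietic growth factors mostly rose, 5 of 9. Csf1, the growth factor of macrophages, had the highest untreated level of them per kilobase of exon and went from 301 and 283 to 862 and 917 CPM (3.05-fold, log2 change 1.61 ± 0.08 SE, edgeR adjusted p = 9.12e-06). Il34†, the second ligand of the same receptor, went from 3 and 2.53 to 12.6 and 12.8 CPM (4.61-fold). Csf2†, which encodes GM-CSF, had 0 counts without TWEAK and 2.38 and 2.57 CPM with it, at least 82.6-fold higher. The receptor of CSF1 and interleukin-34, Csf1r†, was not called at 1.84 and 1.26 CPM without and 1.82 and 1.52 CPM with TWEAK. Among other cytokine receptors 10 of 17 rose, with both chains of the interferon-gamma receptor: Ifngr1 went from 41.9 and 44.1 to 110 and 116 CPM (2.62-fold). Ifngr2 went from 107 and 106 to 222 and 215 CPM (2.05-fold). Il15ra went from 2.46 and 2.79 to 10.6 and 10 CPM (3.93-fold). Il17ra went from 171 and 157 to 95.9 and 89.1 CPM (1.78-fold). Below the receptors, Jak2 rose from 132 and 129 to 363 and 373 CPM (2.81-fold, log2 change 1.49 ± 0.09 SE, edgeR adjusted p = 2.01e-05). Stat5a† went from 25.7 and 24.4 to 46.7 and 42.3 CPM. Stat2 fell from 126 and 104 to 67.6 and 58.6 CPM (1.82-fold). Stat3† went from 466 and 461 to 374 and 353 CPM (1.28-fold). Jak1†, the kinase with the highest level per kilobase of exon, was not called at 474 and 466 CPM without and 468 and 481 CPM with TWEAK. Cish†, a feedback inhibitor of STAT5 signalling, rose 3.07-fold, from 2.04 and 1.4 to 5 and 5.59 CPM.

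Genes of lymphoid stroma rose at 7 of 9 tested members (77.8%, against 15% of all tested genes), with none lower. The median log2 change was 2.23, and 5 more members were not tested. The list was chosen with earlier results of these data known, so its share is a description and no test of the list. Madcam1 and Bst1† had almost no counts without TWEAK and could be tested only through the treated groups. Madcam1, the mucosal addressin that lymphocytes bind through integrin alpha4-beta7, showed 0.16 and 0 CPM without and 62 and 57.9 CPM with TWEAK. Enpp2†, the enzyme autotaxin that makes lysophosphatidic acid, went from 17 and 20 to 262 and 287 CPM (14.8-fold, log2 change 3.89 ± 0.15 SE, edgeR adjusted p = 3.75e-06). Cd200, an inhibitory ligand for myeloid cells, went from 1.42 and 0.903 to 14.7 and 17.9 CPM (14-fold). The adhesion molecule genes Icam1† (129 and 132 to 623 and 601 CPM, 4.7-fold) and Vcam1† (524 and 543 to 1150 and 1157 CPM, 2.16-fold) and the podoplanin gene Pdpn (472 and 499 to 976 and 952 CPM, 1.98-fold) were high before and rose further. Cxcl13, the follicle chemokine, stood at 1.44 and 1.63 CPM without and 2.67 and 2.88 CPM with TWEAK and was not called, although the groups did not overlap.

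Sensors of microbes rose at 25.9%, against 15% of all tested genes, and fell at 14.8%, near the 14.2% of all tested genes. Of 27 genes 7 rose and 4 fell. Tlr2 went from 24 and 28.4 to 47.2 and 46.6 CPM. Tmem173, which encodes STING, went from 44.2 and 34.7 to 89.3 and 77 CPM (2.11-fold, log2 change 1.08 ± 0.13 SE, edgeR adjusted p = 0.000513). Ly96, the partner of TLR4, went from 10 and 9.67 to 16.3 and 19.8 CPM. Tlr4 lay at 76.4 and 74.5 CPM without and 10.5 and 69.1 CPM with TWEAK, lower in both TWEAK10 libraries and most in the first, and was not called (edgeR adjusted p = 0.473). Irak3†, an inhibitor of TLR signalling, fell from 30.8 and 27.2 to 14.3 and 17.1 CPM. Of the interferon regulatory factors, Irf8 rose 6.81-fold, from 1.68 and 2.03 to 9.14 and 16.1 CPM, Irf5† 3.81-fold, and Irf1† 1.89-fold, from 53.5 and 58 to 107 and 103 CPM. Irf7†, the factor induced by type I interferon, lay at 20.3 and 14.7 CPM without and 11.3 and 8.07 CPM with TWEAK and was not called.

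Interferon-stimulated genes went down where they were called. Of 40 tested, 14 fell, 1 rose and 25 were not called, with a median log2 change of -0.67. Ifit3 fell from 143 and 118 to 28.6 and 14.5 CPM (6.08-fold, log2 change -2.60 ± 0.47 SE, edgeR adjusted p = 0.0045), and its TWEAK10 libraries differed from each other by close to 2-fold. Iigp1, a GTPase of cell-autonomous defence, fell from 79.6 and 68.8 to 32.5 and 31.9 CPM (2.3-fold). Isg20 went from 16.4 and 13.6 to 8.36 and 8.14 CPM. The single member that rose was Ifi27, from 74.8 and 86.6 to 129 and 117 CPM. Genes of the immunoproteasome and of peptide loading moved up, 8 of 11. B2m, the light chain of class I molecules, went from 846 and 816 to 1509 and 1420 CPM (1.76-fold, log2 change 0.82 ± 0.09 SE, edgeR adjusted p = 0.000418). Psmb10, a catalytic immunoproteasome subunit, went from 25.1 and 21.1 to 56.8 and 43.3 CPM (2.17-fold). Psme2 of the activator ring went from 50.2 and 49.7 to 84.9 and 75.8 CPM. The transporter genes Tap1† (20 and 19.6 CPM without and 20.5 and 21.1 CPM with TWEAK) and Tap2† (47.5 and 43 CPM without and 56 and 48.4 CPM with TWEAK) were not called. Of the constitutive proteasome 17 of 31 rose and none fell, the largest being Psma6 (83.8 and 94 to 170 and 166 CPM) and Psmd11 (79.5 and 72.4 to 135 and 121 CPM).

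Of 17 complement genes 3 rose (17.6%, near the 15% of all tested genes) and 6 fell (35.3%, against 14.2%). C3, the central component, gained the most CPM per kilobase of exon of all genes, from 209 to 1139 CPM per kilobase as group means. The C1s paralog C1s2, of the protease family that starts the classical pathway, went from 0.719 and 0.482 to 9.75 and 12.5 CPM (18.4-fold, log2 change 4.20 ± 0.24 SE, edgeR adjusted p = 1.46e-05). C1s1† went from 619 and 642 to 987 and 987 CPM. C7, a part of the membrane attack complex, fell from 9.87 and 8.95 to 0.107 and 0.351 CPM (39.6-fold, log2 change -5.31 ± 0.44 SE, edgeR adjusted p = 8.07e-05). The C1 inhibitor Serping1 went from 1059 and 1027 to 508 and 455 CPM (2.17-fold). Of 9 acute phase genes none rose and 3 fell. Saa3 went from 170 and 255 to 39.8 and 43.9 CPM (5.08-fold, log2 change -2.35 ± 0.26 SE, edgeR adjusted p = 0.000371). Haptoglobin (Hp) went from 38.5 and 46.9 to 11.7 and 11.7 CPM. Lbp went from 49.9 and 49.8 to 15.1 and 15.3 CPM. Lcn2, another acute phase gene, lay at 1.1 and 2.89 CPM without and 2.3 and 2.6 CPM with TWEAK.

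Of 9 enzyme genes of prostaglandin synthesis 5 rose and 1 fell. Ptgs2, the inducible cyclooxygenase-2, went from 20.8 and 20.1 to 115 and 146 CPM (6.37-fold, log2 change 2.67 ± 0.14 SE, edgeR adjusted p = 9.58e-06). Ptges, the inducible terminal synthase, went from 97 and 111 to 463 and 490 CPM (4.59-fold, log2 change 2.20 ± 0.09 SE, edgeR adjusted p = 4.02e-06). The constitutive Ptgs1† was not called at 270 and 270 CPM without and 275 and 263 CPM with TWEAK. The prostacyclin synthase Ptgis† fell from 166 and 158 to 107 and 102 CPM, while its receptor Ptgir rose from 14.3 and 14.1 to 63.3 and 66.3 CPM (4.55-fold). The prostaglandin E2 receptor Ptger2† rose 2.09-fold, from 27.4 and 29.5 to 57.7 and 61.1 CPM. The thromboxane receptor Tbxa2r went from 24.4 and 22.1 to 4.7 and 3.98 CPM (5.37-fold).

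The genes Gucy1a3 and Gucy1b3, which encode the nitric oxide receptor, fell. Both subunits of soluble guanylate cyclase were among the largest falls, Gucy1a3 from 58.2 and 69.9 to 2.7 and 2.5 CPM (24.6-fold). Gucy1b3 went from 54 and 56.8 to 4.73 and 4.91 CPM (11.5-fold, log2 change -3.52 ± 0.13 SE, edgeR adjusted p = 3.07e-06). The phosphodiesterases Pde5a†, which degrades cyclic GMP (49.9 and 49.8 to 18.8 and 18.1 CPM, 2.7-fold), and Pde1a (182 and 174 to 52.8 and 50.9 CPM, 3.44-fold) fell too. In the list of cyclases, kinases and phosphodiesterases 18 of 37 fell and 6 rose, Calcrl, the receptor of adrenomedullin and CGRP, among the rises (38.4 and 38 to 142 and 168 CPM, 4.05-fold). The adrenomedullin gene Adm fell from 191 and 188 to 123 and 98.1 CPM.

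Among transcription factors, the Ets family was led by Spib and Spic. Spib, a factor known from B cells, plasmacytoid dendritic cells and M cells, went from 0.2 and 0.562 to 301 and 280 CPM. Etv4 rose 4.67-fold, from 2.86 and 2.47 to 13.7 and 11.3 CPM, and Elk3† 1.81-fold, while Etv1 fell from 64.6 and 79.3 to 37.8 and 44.9 CPM. Of the AP-1 and early response factors 10 of 26 rose. Fosl1†, a Fos-related member, went from 2.74 and 1.73 to 23.3 and 25.5 CPM (10.9-fold, log2 change 3.45 ± 0.27 SE, edgeR adjusted p = 6.17e-05). Egr2 went from 3.44 and 3.79 to 42.2 and 42.3 CPM (11.7-fold, log2 change 3.55 ± 0.13 SE, edgeR adjusted p = 2.88e-06). Junb† went from 79.9 and 72.9 to 191 and 198 CPM (2.55-fold). Myc went from 11.1 and 10.6 to 44.1 and 46.7 CPM (4.18-fold, log2 change 2.06 ± 0.16 SE, edgeR adjusted p = 4.89e-05). Klf4 fell from 180 and 161 to 74.8 and 77 CPM (2.24-fold).

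Factors of lung mesenchyme mostly fell where they were called, 17 of 39 against 3 that rose, with a median log2 change of -0.42. Tcf21, a factor of lipofibroblasts and their progenitors, went from 44.2 and 41.6 to 9.03 and 5.82 CPM (5.78-fold, log2 change -2.53 ± 0.20 SE, edgeR adjusted p = 5.71e-05). The orphan nuclear receptor gene Nr2f1† went from 44 and 43.4 to 17.8 and 18.2 CPM (2.42-fold). Hoxb3† went from 45.8 and 43.5 to 21.5 and 21.5 CPM (2.08-fold). Tcf4 and Nr2f2† were not called, at 120 and 164 CPM without and 132 and 138 CPM with TWEAK and at 108 and 115 CPM without and 102 and 103 CPM with TWEAK. Meox1 moved against the list, from 0.14 and 0.0803 to 2.99 and 4.33 CPM (log2 change 5.02 ± 0.41 SE, edgeR adjusted p = 6.80e-05).

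Matrix genes fell in most classes. Of 14 small leucine-rich proteoglycans 7 fell. Ogn went from 575 and 592 to 19.1 and 14.7 CPM. Aspn† went from 18.7 and 18.1 to 0.721 and 0.514 CPM. Fibromodulin (Fmod) went from 157 and 153 to 22.5 and 15.9 CPM (8.1-fold, log2 change -3.02 ± 0.17 SE, edgeR adjusted p = 1.32e-05). Podn went from 265 and 210 to 39 and 32.6 CPM (6.65-fold). Prelp† went from 1171 and 1160 to 363 and 337 CPM (3.33-fold, log2 change -1.74 ± 0.07 SE, edgeR adjusted p = 3.85e-06). Biglycan (Bgn), the member with the highest level per kilobase of exon, was not called at 5227 and 4929 CPM without and 4973 and 4774 CPM with TWEAK. Decorin (Dcn) rose from 1092 and 1172 to 1405 and 1596 CPM (1.33-fold, log2 change 0.41 ± 0.08 SE, edgeR adjusted p = 0.00567). In the other proteoglycans and the hyaluronan genes 8 of 21 rose and 5 fell. Cd44, the hyaluronan receptor, went from 133 and 143 to 713 and 796 CPM (5.47-fold, log2 change 2.45 ± 0.20 SE, edgeR adjusted p = 6.51e-05). Glypican genes divided, Gpc1† rising from 108 and 101 to 622 and 610 CPM (5.88-fold). Gpc3 went from 55.1 and 56.4 to 19.7 and 13.5 CPM (3.36-fold).

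Collagen genes fell at 15 of 23 and rose at 3. Col3a1† went from 8955 and 8870 to 1936 and 1886 CPM (4.66-fold, log2 change -2.22 ± 0.13 SE, edgeR adjusted p = 1.54e-05). Col1a1 went from 4129 and 4051 to 1673 and 1544 CPM (2.54-fold). Col5a2 went from 2471 and 2445 to 1009 and 1012 CPM (2.43-fold). Col1a2, the other chain of type I collagen, was chosen after its values were seen and fell less, from 4414 and 4226 to 3050 and 2965 CPM (1.44-fold). Col5a3 moved against the class, from 51.9 and 50 to 167 and 187 CPM (3.47-fold). Of the processing and cross-linking enzymes 11 of 20 fell. Lox†, a lysyl oxidase, went from 455 and 469 to 111 and 106 CPM (4.26-fold, log2 change -2.09 ± 0.12 SE, edgeR adjusted p = 1.50e-05). Loxl2† went from 336 and 329 to 125 and 112 CPM (2.81-fold). Plod1, a lysyl hydroxylase, went from 207 and 195 to 109 and 97 CPM. Prolyl hydroxylases split, P4ha3 falling from 116 and 109 to 53.5 and 48 CPM (2.21-fold). P4ha2 went from 67.7 and 63.3 to 88.4 and 89.3 CPM (1.36-fold), and P4ha1 was not called at 246 and 240 CPM without and 231 and 239 CPM with TWEAK.

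The elastic fibre list had the largest share of falls of the lists with at least 8 tested members, 14 of 18. Fbln5, which links elastin to cells, went from 81.8 and 79.8 to 28.9 and 25.7 CPM (2.96-fold, log2 change -1.57 ± 0.09 SE, edgeR adjusted p = 1.39e-05). Efemp1 went from 368 and 384 to 118 and 112 CPM (3.27-fold). Tenascin X (Tnxb†) went from 720 and 632 to 200 and 213 CPM (3.28-fold). The fibrillin gene Fbn1† went from 2333 and 2226 to 1628 and 1766 CPM (1.34-fold). Of the latent TGF-beta binding proteins, Ltbp1 fell from 456 and 454 to 225 and 227 CPM (2.01-fold). Ltbp2†, which does not bind TGF-beta, went from 484 and 483 to 1972 and 1984 CPM (4.09-fold). In the basement membrane 11 of 22 fell. Nidogen-2 (Nid2†) went from 491 and 460 to 37.5 and 30.3 CPM (14-fold, log2 change -3.81 ± 0.21 SE, edgeR adjusted p = 1.14e-05), and the groups lay far apart. Col4a1†, the type IV collagen gene with the highest level per kilobase of exon of the list, went from 1661 and 1580 to 1354 and 1329 CPM, a fall with edgeR adjusted p of 0.0681 without untreated replicate 1. The laminin chain gene Lama2† fell from 129 and 118 to 34.6 and 37.7 CPM (3.4-fold). Another, Lama4, went from 404 and 402 to 236 and 234 CPM (1.71-fold). Col18a1 went from 78 and 76.4 to 136 and 140 CPM.

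Of 30 matrix glycoproteins 18 fell and 6 rose. Fibronectin (Fn1†) went from 11997 and 11114 to 6240 and 6897 CPM (1.76-fold). Sparcl1 went from 2677 and 2716 to 554 and 569 CPM (4.8-fold, log2 change -2.26 ± 0.10 SE, edgeR adjusted p = 4.92e-06). Sparc went from 4085 and 4008 to 2075 and 1877 CPM (2.05-fold). Smoc2 went from 117 and 106 to 15.2 and 15.2 CPM (7.37-fold, log2 change -2.88 ± 0.15 SE, edgeR adjusted p = 8.78e-06). Matrix Gla protein (Mgp) went from 5344 and 6027 to 3285 and 3267 CPM (1.74-fold). Osteopontin (Spp1†) rose, from 238 and 249 to 630 and 657 CPM (2.64-fold, log2 change 1.40 ± 0.06 SE, edgeR adjusted p = 4.91e-06).

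Of 24 metalloproteinase genes tested, of the Mmp and Adam families, 5 rose and 7 fell. Mmp10, a stromelysin, went from 14.6 and 16.3 to 132 and 142 CPM (8.88-fold). Mmp12†, the macrophage elastase, went from 2.28 and 2.49 to 8.98 and 9.35 CPM (3.84-fold). The collagenase gene Mmp8 fell from 1226 and 1275 to 653 and 667 CPM (1.89-fold, log2 change -0.92 ± 0.07 SE, edgeR adjusted p = 6.44e-05). Mmp3, the metalloproteinase gene with the highest level per kilobase of exon, was not called at 2190 and 2236 CPM without and 2167 and 2249 CPM with TWEAK. Of 20 ADAMTS genes 15 fell and 3 rose. Adamts15, an aggrecanase and versicanase, went from 290 and 283 to 15.7 and 13.6 CPM (19.6-fold, log2 change -4.29 ± 0.27 SE, edgeR adjusted p = 2.03e-05). Adamts5 went from 348 and 360 to 134 and 120 CPM (2.79-fold). Adamtsl3 went from 245 and 217 to 35.3 and 31.9 CPM (6.88-fold, log2 change -2.78 ± 0.13 SE, edgeR adjusted p = 7.00e-06). Adamts7† went from 50.7 and 53.3 to 128 and 129 CPM (2.47-fold). Inhibitors divided evenly, 6 higher and 6 lower of 19. Timp1, a secreted inhibitor of metalloproteinases, rose 1.9-fold, from 327 and 328 to 628 and 617 CPM, and Timp3†, which binds to the matrix, fell 7.9-fold, from 1609 and 1558 to 210 and 191 CPM. Timp2 was not called at 2044 and 1959 CPM without and 2027 and 1921 CPM with TWEAK. Serpina3g, an intracellular serpin gene, went from 128 and 135 to 842 and 786 CPM (6.18-fold, log2 change 2.63 ± 0.12 SE, edgeR adjusted p = 5.23e-06). The serine protease genes Htra1 and Htra3 moved in opposite directions, from 24.4 and 24.5 to 83.4 and 84.1 CPM and from 64.5 and 65.2 to 9.86 and 10.9 CPM.

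Integrin genes moved both ways, 7 of 20 higher and 5 lower. Itga8†, a marker of alveolar fibroblasts, went from 213 and 202 to 25.5 and 23.6 CPM (8.44-fold). The collagen receptor Itga1† went from 81.6 and 82.8 to 25 and 26.2 CPM (3.21-fold, log2 change -1.68 ± 0.09 SE, edgeR adjusted p = 1.13e-05). The second collagen receptor Itga2 rose from 39.2 and 37.9 to 84.2 and 100 CPM (2.39-fold). The fibronectin receptor Itga5 went from 176 and 172 to 260 and 257 CPM (1.49-fold). Among cadherins, Cdh11 of fibroblasts rose from 235 and 239 to 598 and 656 CPM (2.65-fold, log2 change 1.40 ± 0.10 SE, edgeR adjusted p = 3.12e-05). Cdh5, a marker of endothelium, went from 0.18 and 0.12 to 4.27 and 3.81 CPM (log2 change 4.72 ± 0.34 SE, edgeR adjusted p = 4.07e-05). Of 10 endothelial markers 6 were tested, of which 1 rose and 1 fell, and 7 stayed under 1 CPM in all 4 libraries. Cldn5, Tie1 and Emcn had 0 counts in all 4 libraries. Pecam1 had too few counts to be tested, with 0 and 3 counts without and 4 and 20 counts with TWEAK. Kdr stood at 0.32 and 0.381 CPM without and 0 and 0.281 CPM with TWEAK. The part of endothelial cells in the rise of Cdh5 was not tested. Contractile genes fell more often than they rose, 13 against 6 of 26. Mylk†, the myosin light chain kinase, went from 675 and 676 to 433 and 411 CPM (1.6-fold). Des†, which encodes desmin, went from 35.5 and 27.6 to 119 and 111 CPM (3.64-fold, log2 change 1.86 ± 0.13 SE, edgeR adjusted p = 3.84e-05). Acta2, the smooth muscle actin of myofibroblasts, lay at 659 and 625 CPM without and 539 and 422 CPM with TWEAK and was not called (edgeR adjusted p = 0.132).

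Of the morphogen pathways of the lung mesenchyme, the TGF-beta, BMP, Wnt and Hedgehog lists held more falls than rises and the Notch list did not. TGF-beta genes fell at 10 of 24 and rose at 4. The ligand Tgfb1 rose from 50.4 and 49.7 to 140 and 133 CPM (2.73-fold, log2 change 1.45 ± 0.07 SE, edgeR adjusted p = 6.89e-06). The receptors Tgfbr2 (869 and 827 to 331 and 318 CPM) and Tgfbr3† (352 and 337 to 150 and 148 CPM) fell. Smad2, Smad3 and Smad4, the transducers, were not called, with Smad3 at 188 and 177 CPM without and 195 and 208 CPM with TWEAK. In the BMP list 17 of 24 fell and 6 rose. Bmp4† (chr14:46383520-46390669) went from 81.9 and 75.6 to 5.69 and 4.79 CPM (15-fold, log2 change -3.91 ± 0.19 SE, edgeR adjusted p = 7.65e-06). Bmp5† went from 100 and 104 to 25.2 and 26.3 CPM (3.97-fold). Bmp6† went from 26.4 and 26.8 to 5.58 and 3.86 CPM (5.65-fold). Gdf10, which encodes BMP3B, went from 74 and 70.6 to 4.81 and 3.46 CPM (17.5-fold, log2 change -4.13 ± 0.18 SE, edgeR adjusted p = 4.49e-06). The receptor Bmpr1a† fell 1.7-fold, from 345 and 351 to 209 and 201 CPM. The antagonist Grem1, which had the highest level of the list per kilobase of exon, rose from 2274 and 2205 to 3704 and 4047 CPM (1.73-fold). Bmp3, a BMP that acts against the others, went from 2.92 and 2.43 to 23.1 and 29.8 CPM (9.9-fold, log2 change 3.31 ± 0.29 SE, edgeR adjusted p = 0.000103).

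Wnt ligands and receptors fell at 15 of 24 and rose at 2. Wnt5a† went from 50.4 and 46.5 to 17.7 and 18.6 CPM (2.66-fold). The receptor Fzd8 went from 57.2 and 51.3 to 18.9 and 19.6 CPM (2.82-fold). Lrp4, a receptor of agrin and sclerostin, went from 120 and 120 to 4.11 and 5.26 CPM (25.6-fold, log2 change -4.68 ± 0.24 SE, edgeR adjusted p = 9.46e-06). R-spondins, which amplify Wnt signals, split. Rspo1 fell from 12.6 and 12.9 to 2.14 and 2.31 CPM (5.71-fold). Rspo2 went from 4.87 and 5.84 to 31.2 and 27.7 CPM (5.49-fold, log2 change 2.46 ± 0.14 SE, edgeR adjusted p = 1.42e-05). Of 14 Wnt antagonists and feedback genes 8 fell and 1 rose. The secreted antagonist Sfrp1 fell from 1652 and 1628 to 353 and 348 CPM (4.68-fold). Sfrp2† went from 157 and 147 to 7.83 and 7.46 CPM (19.9-fold). Dkk3 went from 660 and 642 to 354 and 316 CPM (1.94-fold). Nkd1, a feedback target, went from 27.6 and 27 to 3.42 and 3.91 CPM (7.44-fold, log2 change -2.90 ± 0.21 SE, edgeR adjusted p = 3.97e-05).

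Hedgehog genes fell at 7 of 10. The co-receptor genes Gas1† (441 and 380 to 107 and 103 CPM, 3.92-fold), Boc (30.9 and 33.8 to 13 and 12.4 CPM, 2.55-fold) and Cdon (151 and 153 to 69.1 and 79.4 CPM, 2.05-fold) fell. The transcription factor genes Gli2 (38.4 to 22.8 CPM as group means) and Gli3† (82.6 to 51.1 CPM) fell too. Hhip†, the decoy of Hedgehog ligands, rose from 0.639 and 0.201 to 4.43 and 3.53 CPM (log2 change 3.24 ± 0.65 SE, edgeR adjusted p = 0.00724). Of 12 Notch genes 3 rose (25%, against 15% of all tested genes) and 2 fell (16.7%, near the 14.2% of all). The ligand Dll1† went from 2.34 and 1.12 to 11.2 and 10.7 CPM (6.32-fold). The ligand Jag1 went from 10.7 and 9.89 to 30.7 and 31.8 CPM (3.03-fold, log2 change 1.60 ± 0.13 SE, edgeR adjusted p = 7.53e-05). The target genes Hes1 (6.37 and 8.71 to 2.81 and 3.44 CPM) and Heyl (1.7 and 1.24 to 0.134 and 0.234 CPM) fell. Of 12 Hippo genes 33.3% were called, near the 29.2% of all tested genes. Yap1† was among the 8 not called, at 243 and 250 CPM without and 231 and 235 CPM with TWEAK. The plot of morphogen genes by library shows the ligand and receptor genes that fell to the left of their untreated points and the few that rose to the right.

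**Figure D3:**
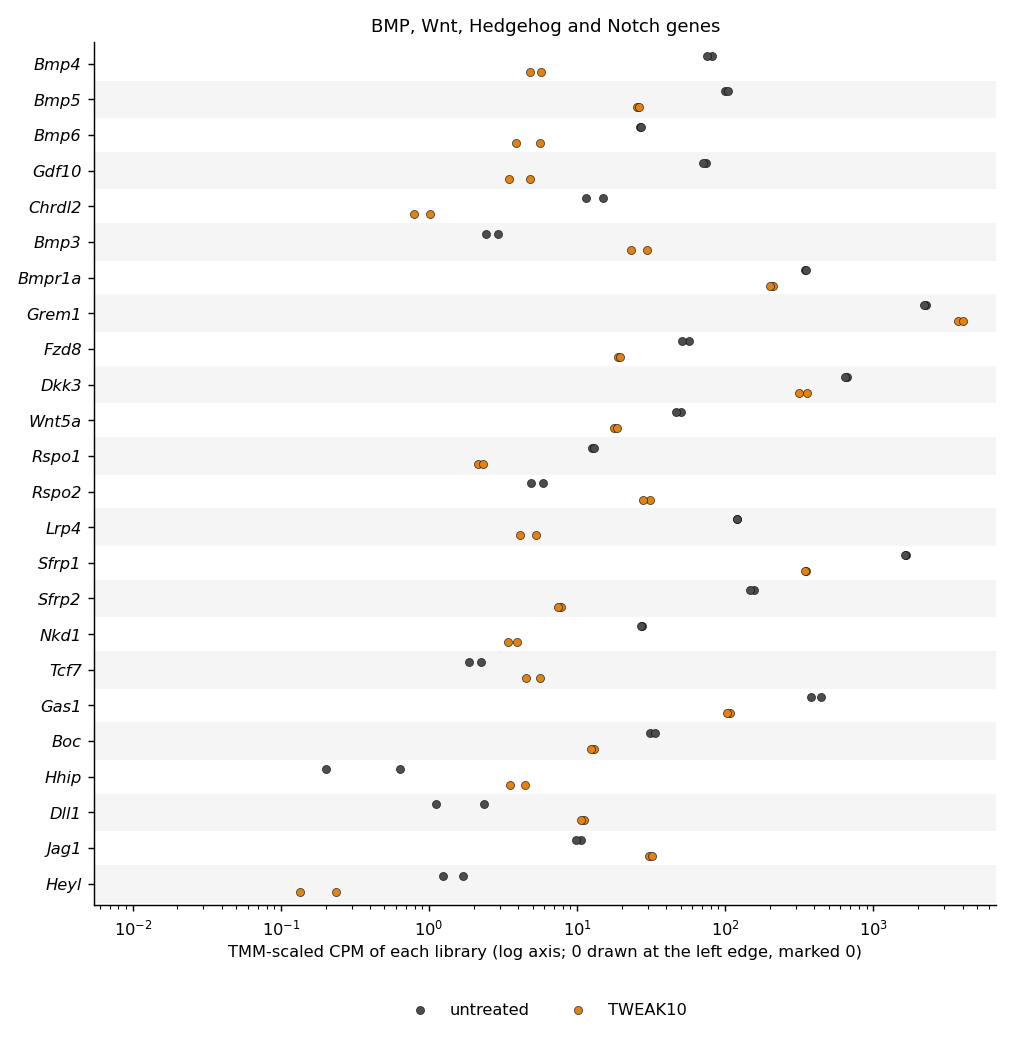
TMM-scaled CPM (x axis, log) of 24 BMP, Wnt, Hedgehog and Notch genes in each untreated (grey) and TWEAK10 (orange) library; each point is 1 library. Bmp4, Gdf10, Lrp4 and Sfrp2 lie at least 10-fold lower in the TWEAK10 libraries, and Bmp3, Rspo2, Hhip and Dll1 lie higher.

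Growth factor genes moved in both directions. Of the IGF axis 7 of 16 fell and 4 rose: Igf1 went from 228 and 227 to 25.9 and 27.5 CPM (8.5-fold, log2 change -3.09 ± 0.10 SE, edgeR adjusted p = 2.51e-06). The binding protein gene Igfbp4 went from 1616 and 1538 to 654 and 625 CPM. Igfbp5 went from 1627 and 1579 to 480 and 533 CPM. Pappa, the protease that cleaves IGFBP4, went from 191 and 186 to 50.6 and 57 CPM (3.51-fold). Stc2, an inhibitor of that protease, rose 2.13-fold, from 25 and 25.3 to 52.4 and 54.7 CPM. Lymphatic growth factors went apart, Vegfc rising from 58.1 and 55.8 to 226 and 228 CPM (3.99-fold, log2 change 2.00 ± 0.09 SE, edgeR adjusted p = 4.75e-06). Vegfd went from 304 and 296 to 60.5 and 48.1 CPM (5.53-fold, log2 change -2.47 ± 0.14 SE, edgeR adjusted p = 1.33e-05). The VEGF receptor genes Flt1 (13.2 and 13.7 to 53.6 and 66.7 CPM, 4.47-fold) and Nrp2 (400 and 371 to 1080 and 1141 CPM, 2.88-fold) rose, as did neuregulin-1 (Nrg1†, 8.67 and 8.23 to 68.2 and 80.8 CPM, 8.81-fold). Over that list of PDGF, FGF, HGF, VEGF and EGF genes, 15 of 43 rose and 14 fell. Guidance cues split in the same way, 13 higher and 13 lower of 45, with Sema7a going from 1.24 and 1.81 to 17.5 and 17.6 CPM (11.5-fold). Sema3d went from 145 and 149 to 30.8 and 33.3 CPM (4.57-fold, log2 change -2.19 ± 0.08 SE, edgeR adjusted p = 2.67e-06). The plexin receptor genes Plxna2 (40.3 and 36.8 to 121 and 122 CPM) and Plxnd1 (131 and 123 to 320 and 322 CPM) rose.

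Genes that mark alveolar and lipofibroblasts fell at 13 of 18. Limch1 went from 781 and 594 to 150 and 153 CPM (4.54-fold, log2 change -2.18 ± 0.14 SE, edgeR adjusted p = 2.01e-05). The glycogenin gene Gyg went from 771 and 839 to 148 and 175 CPM (4.98-fold). Pparg, the lipid-cell nuclear receptor, went from 4.38 and 5.16 to 0.614 and 0.117 CPM (13.2-fold, log2 change -3.73 ± 0.68 SE, edgeR adjusted p = 0.00444). Lipoprotein lipase (Lpl) rose against them, from 31.4 and 34.9 to 195 and 267 CPM (6.97-fold, log2 change 2.80 ± 0.18 SE, edgeR adjusted p = 2.07e-05). Adventitial and progenitor markers fell at 12 of 22: Clec3b went from 61.3 and 63.9 to 2.3 and 1.92 CPM (29.7-fold). Gelsolin (Gsn) went from 3566 and 3158 to 634 and 531 CPM (5.77-fold, log2 change -2.53 ± 0.13 SE, edgeR adjusted p = 7.92e-06). Thy1 went from 82.1 and 84.9 to 35.1 and 31 CPM (2.53-fold). Cd34†, also a progenitor marker, rose from 2.22 and 2.01 to 45.3 and 51.7 CPM.

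Of 17 genes of retinoid metabolism 7 fell and 3 rose, with a median log2 change of -0.22. Aldh1a1, an enzyme that makes retinoic acid, fell from 113 and 119 to 24.2 and 17.2 CPM (5.61-fold, log2 change -2.49 ± 0.18 SE, edgeR adjusted p = 3.90e-05). Its paralog Aldh1a3 went from 34.6 and 28.2 to 7.03 and 6.41 CPM (4.68-fold), while Rdh10, an enzyme of the step before, rose from 20.1 and 20.7 to 39.2 and 39.8 CPM (1.93-fold). Of 17 clock genes 6 fell and 2 rose, the repressor Bhlhe40† among the rises (153 and 148 to 244 and 253 CPM) and Tef† among the falls (133 and 125 to 75 and 72 CPM). Imprinted growth regulators fell at 9 of 19 and rose at none. Plagl1†, a zinc finger factor of the imprinted network, went from 19.8 and 18.8 to 3.13 and 3.27 CPM (6.03-fold, log2 change -2.59 ± 0.17 SE, edgeR adjusted p = 2.35e-05). Peg10 went from 50.6 and 48.8 to 16.7 and 16.9 CPM (2.95-fold). Grb10, an adaptor that restrains insulin and IGF signalling, went from 846 and 806 to 427 and 425 CPM (1.94-fold).

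Most genes of the proliferation lists rose. Of 32 replication genes 24 rose and 2 fell, and of 30 mitosis genes 27 rose and none fell, with medians of 0.84 and 1.38 on the log2 scale. Ccnd1†, which encodes cyclin D1, went from 23.7 and 24.8 to 208 and 196 CPM (8.31-fold, log2 change 3.06 ± 0.13 SE, edgeR adjusted p = 4.49e-06). The cyclin D2 gene Ccnd2† fell from 519 and 529 to 411 and 415 CPM. Uhrf1, of maintenance DNA methylation, went from 10.3 and 12.5 to 49.6 and 44 CPM (4.12-fold). Rrm2, a subunit of ribonucleotide reductase, went from 10.9 and 13.4 to 33.1 and 34.1 CPM (2.77-fold). Mki67, the proliferation marker, went from 14.5 and 15.4 to 44.6 and 51.3 CPM (3.21-fold, log2 change 1.68 ± 0.14 SE, edgeR adjusted p = 9.37e-05). Inhibitors of cyclin-dependent kinases moved both ways. Cdkn2a (7.03 and 6 to 34 and 29.2 CPM, 4.85-fold) and Cdkn2b (17.7 and 20.1 to 68.4 and 66.8 CPM, 3.58-fold) rose. Cdkn2c (54.3 and 51.2 to 21.9 and 15.1 CPM, 2.86-fold) and Cdkn1b (80.1 and 81.1 to 48 and 51.1 CPM, 1.63-fold) fell. Cdkn1a†, a p53 target, rose 1.57-fold from 346 and 335 to 551 and 515 CPM. Of 25 p53 targets 14 rose, Mdm2, the ligase of p53, from 113 and 111 to 247 and 270 CPM (2.3-fold, log2 change 1.20 ± 0.07 SE, edgeR adjusted p = 1.38e-05), and Trp53 itself 1.87-fold. Zmat3 (152 and 156 CPM without and 162 and 173 CPM with TWEAK) and Btg2 (78 and 71.2 CPM without and 74.5 and 73.3 CPM with TWEAK), further targets, were not called.

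Antioxidant genes controlled by NRF2 rose at 19 of 26 and fell at 2. Slc7a11, the cystine importer, went from 7.57 and 8.25 to 149 and 192 CPM (21.6-fold). Nqo1 went from 14.6 and 16.5 to 59 and 65.2 CPM (4-fold, log2 change 2.00 ± 0.11 SE, edgeR adjusted p = 1.07e-05). Hmox1, the haem oxygenase, went from 187 and 179 to 553 and 550 CPM (3.01-fold) and peroxiredoxin-1 (Prdx1) from 593 and 617 to 1577 and 1733 CPM (2.74-fold, log2 change 1.45 ± 0.06 SE, edgeR adjusted p = 3.91e-06). The gene of NRF2 itself, Nfe2l2, was not called at 211 and 220 CPM without and 234 and 256 CPM with TWEAK, nor was its adaptor Keap1† at 70.9 and 58.5 CPM without and 67.2 and 51.7 CPM with TWEAK. Other detoxifying enzymes went the opposite way, 18 of 28 lower and 6 higher. The carboxylesterases Ces1d (132 and 138 to 9.99 and 7.97 CPM, 15.1-fold) and Ces1g (31.6 and 31.4 to 0.668 and 0.912 CPM, 39.5-fold), which are close paralogs that may share reads, fell. The monooxygenase Fmo2 (126 and 129 to 17.7 and 17.8 CPM, 7.16-fold) and the selenium-binding methanethiol oxidase Selenbp1 (356 and 362 to 18.8 and 16.2 CPM, 20.6-fold) fell as well. The extracellular selenoprotein gene Gpx3 fell from 628 and 665 to 170 and 153 CPM (4-fold). Another, Selenop†, went from 886 and 949 to 185 and 175 CPM (5.1-fold). Metallothionein-2 (Mt2†) rose from 219 and 228 to 480 and 447 CPM. The zinc importer Slc39a4 went from 0.22 and 0 to 12.3 and 11.9 CPM. Among iron genes the transferrin receptor Tfrc rose from 31.9 and 36 to 67 and 83.3 CPM (2.21-fold). The exporter Slc40a1 went from 21.7 and 26.6 to 6.89 and 8.02 CPM (3.24-fold). Il4i1†, an oxidase of aromatic amino acids, went from 0.0599 and 0.201 to 29.7 and 27.9 CPM.

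Metabolic genes rose in several pathways by small folds. Of 22 glycolysis genes 15 rose and 1 fell: Pgk1 went from 253 and 266 to 574 and 584 CPM (2.23-fold). Pkm† went from 1108 and 1158 to 1972 and 1855 CPM (1.69-fold). The transporter gene Slc2a6 went from 11.1 and 12.4 to 66 and 61.6 CPM (5.42-fold, log2 change 2.44 ± 0.10 SE, edgeR adjusted p = 3.91e-06). Ldha, of lactate formation, was not called at 609 and 616 CPM without and 742 and 660 CPM with TWEAK. Amino acid genes rose at 18 of 29, with Odc1, the first enzyme of polyamine synthesis, going from 79.1 and 77.7 to 276 and 264 CPM (3.45-fold, log2 change 1.79 ± 0.07 SE, edgeR adjusted p = 4.05e-06). The glutamine carrier Slc1a5 went from 115 and 116 to 250 and 241 CPM (2.13-fold). Slc38a2 went from 715 and 721 to 413 and 403 CPM (1.76-fold). Genes of cholesterol and fatty acid metabolism rose at 13 of 28. Both cholesterol exporters were among them, Abca1 from 289 and 286 to 626 and 738 CPM (2.37-fold, log2 change 1.25 ± 0.10 SE, edgeR adjusted p = 5.18e-05). Abcg1 went from 2.02 and 2.27 to 8.09 and 6.87 CPM (3.49-fold). Ch25h†, which makes 25-hydroxycholesterol, went from 21.1 and 20.8 to 51 and 47 CPM (2.33-fold).

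Of the stress genes of the endoplasmic reticulum 8 of 24 rose. Ern1, which encodes the sensor IRE1, went from 77.8 and 79.5 to 193 and 230 CPM (2.68-fold, log2 change 1.42 ± 0.11 SE, edgeR adjusted p = 4.35e-05). The chaperone gene Hspa5 was not called at 742 and 731 CPM without and 759 and 737 CPM with TWEAK. Ddit3, a factor of the same response, was not called at 62.1 and 64 CPM without and 66.3 and 62.7 CPM with TWEAK. Aminoacyl-tRNA synthetases rose at 18 of 20 with a median log2 change of 0.42, the largest being Cars† from 68.6 and 65.2 to 119 and 126 CPM (1.83-fold). Cytosolic ribosomal protein genes rose at 25 of 30, with a median of 0.27 on the log2 scale, for example Rpl3† from 635 and 674 to 943 and 884 CPM (1.4-fold). With library totals in place of TMM the median change of all genes was 0.035 in place of 0.006. Nuclear genes of oxidative phosphorylation were called at 4 of 27 and those of the mitochondrial genome at 0 of 13, for which the unadjusted edgeR p was under 0.05 in 1 of them. Of 26 lysosome and autophagy genes 7 fell (26.9%, against 14.2% of all tested genes) and 4 rose (15.4%, near the 15% of all). The hexosaminidase subunit Hexa† (454 and 456 to 305 and 281 CPM) was among the falls.

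Of 41 tested genes of G-protein receptors, 11 fell (26.8%, against 14.2% of all tested genes). The 6 that rose (14.6%) lay near the 15% of all tested genes. Cmklr1, a receptor of chemerin, went from 68 and 67.9 to 8.23 and 8.07 CPM (8.33-fold, log2 change -3.06 ± 0.12 SE, edgeR adjusted p = 3.91e-06). The angiotensin receptor Agtr2 went from 8.21 and 8.47 to 0.401 and 0.257 CPM (25.4-fold). The endothelin receptor Ednra† went from 143 and 145 to 38.1 and 37.1 CPM (3.83-fold, log2 change -1.94 ± 0.10 SE, edgeR adjusted p = 8.80e-06). The thrombin receptor F2r went from 469 and 465 to 222 and 222 CPM (2.1-fold). The sphingosine-1-phosphate receptor S1pr3† rose from 77.7 and 75.5 to 156 and 165 CPM (2.1-fold), and the lysophosphatidic acid receptor Lpar1 was not called at 485 and 478 CPM without and 451 and 424 CPM with TWEAK. Channels were called at 15 of 35 (42.9%, against 29.2% of all tested genes). The potassium channel subunit Kcne4 fell from 183 and 186 to 49.5 and 44.5 CPM (3.92-fold). Kcnq5† went from 0.46 and 0.401 to 7.91 and 6.45 CPM (log2 change 4.05 ± 0.33 SE, edgeR adjusted p = 7.39e-05). The plot of all lists orders them by the difference between the share that rose and the share that fell.

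**Figure D4:**
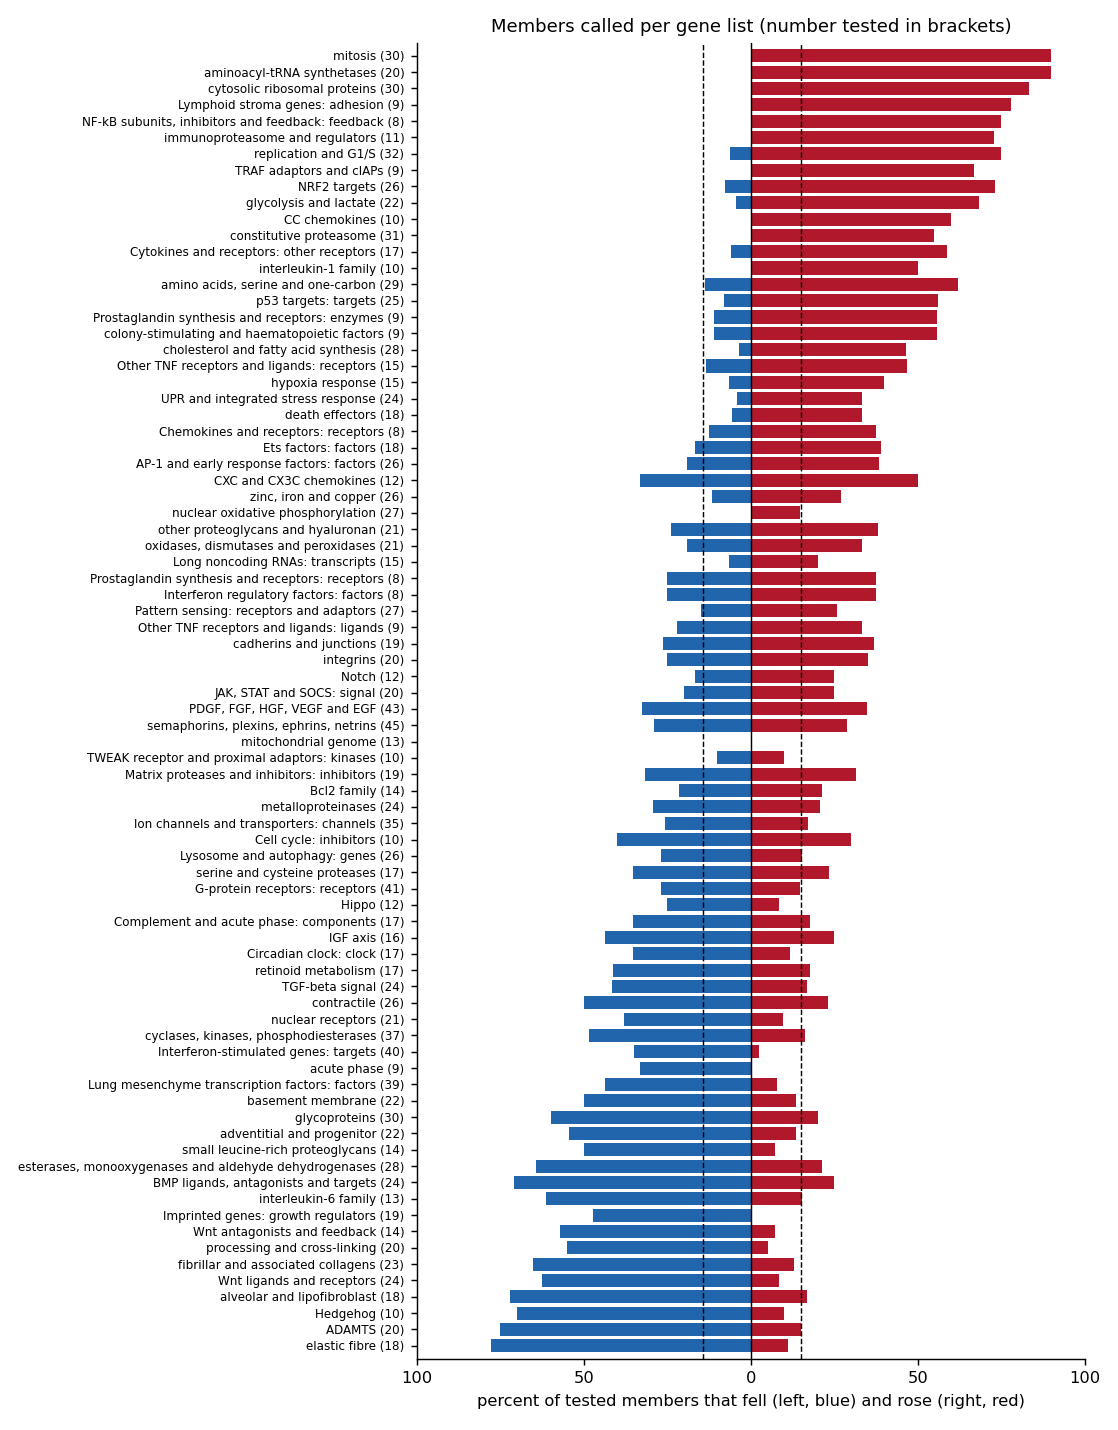
Percent of tested members of each gene list with at least 8 tested members that rose (right, red) or fell (left, blue) with TWEAK at 10 ng/ml; the number tested stands in brackets, and dashed lines mark the shares over all tested genes, 15% higher and 14.2% lower. Mitosis and aminoacyl-tRNA synthetase lists stand at the top with 90% higher, and the elastic fibre list at the bottom.

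Further genes named for the size of their change or of their gain lay outside these lists. Mfge8, a bridge by which phagocytes bind dying cells, went from 308 and 298 to 1900 and 1757 CPM (6.03-fold, log2 change 2.59 ± 0.12 SE, edgeR adjusted p = 7.02e-06), and per kilobase from 64.6 to 390 CPM as group means. Galectin-1 (Lgals1) rose 1.55-fold, from 1052 and 1122 to 1760 and 1615 CPM. Myh15, a myosin heavy chain gene of slow tonic muscle, and Cdhr1, a photoreceptor cadherin gene, were near 0 before and stood at 21.2 and 32.7 and 33.5 and 39.4 CPM. Among falls, St8sia2, a polysialyltransferase gene, went from 91.3 and 86.9 to 2.91 and 2.76 CPM (31.4-fold). Abca8a, a transporter gene, went from 50.8 and 53.2 to 3.05 and 4.84 CPM (13.1-fold, log2 change -3.72 ± 0.21 SE, edgeR adjusted p = 1.42e-05). Nrep went from 38.1 and 37.3 to 2.54 and 2.53 CPM (14.9-fold). Chrdl2, a BMP antagonist, went from 14.9 and 11.4 to 1.02 and 0.795 CPM (14.5-fold).

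The remaining comparisons set the TWEAK10 libraries against those of the other labelled doses. No gene was called between TWEAK10 and TWEAK30 by edgeR (0% of 17360), where 1208 had an unadjusted p under 0.05. DESeq2 called 127 and limma-voom 0 in the same comparison, and with any 1 library left out edgeR called 3 to 62, the latter without TWEAK30 replicate 1. Mmp9 stood at 337 and 380 CPM in the TWEAK10 and 246 and 182 CPM in the TWEAK30 libraries, a log2 difference of 0.75 ± 0.14 SE, edgeR adjusted p = 0.286. Ogn stood at 19.1 and 14.7 and 27.6 and 42 CPM, a log2 difference of -1.04 ± 0.20 SE, edgeR adjusted p = 0.286. Neither pair of groups overlapped.

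Between TWEAK10 and TWEAK100, 3816 genes were called, 22% of those tested, 1952 higher and 1864 lower at the lower labelled dose. Without TWEAK10 replicate 1 the count was 2524 (1188 higher), without TWEAK100 replicate 1 it was 2406 (1185 higher and 1221 lower), and without TWEAK100 replicate 2 1233 were lower. Since both comparisons use the TWEAK10 libraries, only their own values are set side by side. Mmp9 stood at 13.2 and 11.8 CPM in the TWEAK100 libraries (TWEAK10 minus TWEAK100 4.84 ± 0.17 SE, edgeR adjusted p = 1.87e-05), between the untreated and the TWEAK10 values. Spib stood at 37.1 and 36.9 CPM (2.97 ± 0.21 SE, edgeR adjusted p = 7.23e-05) and Ccl2 at 270 and 296 CPM (2.03 ± 0.16 SE, edgeR adjusted p = 0.000125). Of the genes that fell, Ogn stood at 291 and 330 CPM (-4.20 ± 0.22 SE, edgeR adjusted p = 3.57e-05) and Col3a1† at 7336 and 7771 CPM (-1.98 ± 0.13 SE, edgeR adjusted p = 5.83e-05). Grem1 differed less, at 3362 and 3077 CPM against 3704 and 4047 CPM (0.27 ± 0.07 SE, edgeR adjusted p = 0.0295). In the plot of 14 genes in all 8 libraries, the TWEAK100 points lie between the untreated and TWEAK10 points for each gene shown, and the TWEAK30 points lie next to those of TWEAK10 except for 1 TWEAK30 library in Ifit3.

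**Figure D5:**
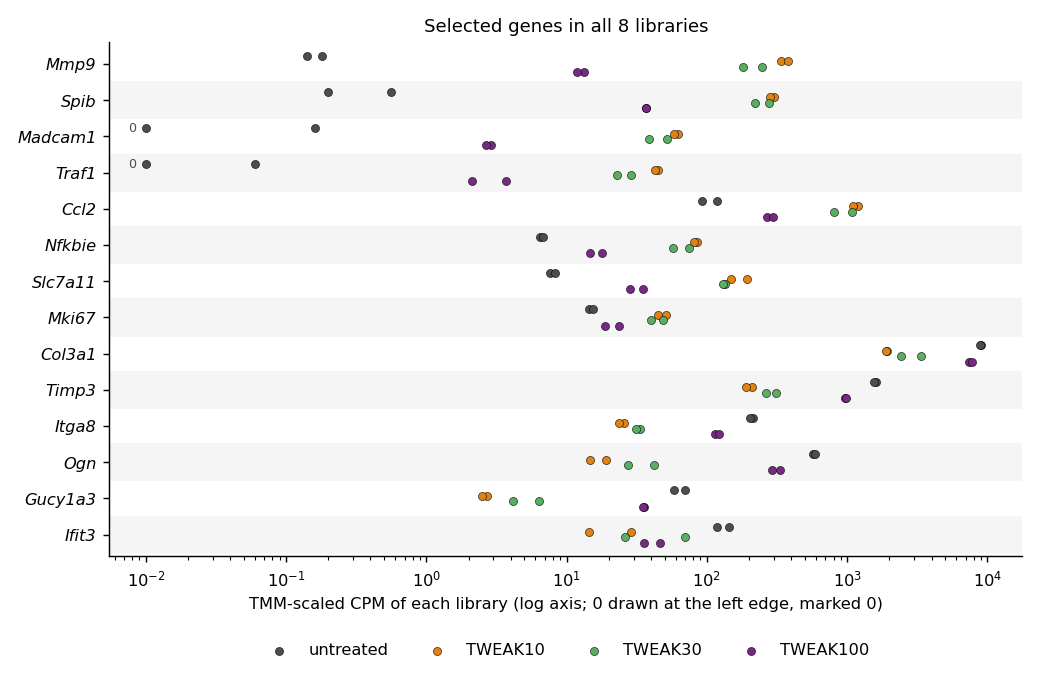
TMM-scaled CPM (x axis, log) of 14 genes in all 8 libraries by labelled group (grey untreated, orange TWEAK10, green TWEAK30, purple TWEAK100); each point is 1 library, and 0 is drawn at the left edge. For Mmp9 the TWEAK100 libraries lie at 13.2 and 11.8 CPM, between the untreated and the TWEAK10 libraries.

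All changes against untreated cells were tested with the quasi-likelihood test of edgeR over 17360 genes, with Benjamini-Hochberg adjustment and all 8 libraries in 1 fit. With 2 libraries a group many calls depend on single libraries, and 55.5% of the 5075 calls held when each of the 4 libraries was left out in turn.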

How the data were processed

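The authors deposited 1 table of raw read counts per gene for the 8 libraries of total RNA. Per the submitters' processing notes, STAR, StringTie and mm10 were used; the counting program, the annotation and the strand setting are each not given in the sources used here. Groups came from the sample titles and treatment labels, and no column was left unused (0). Of 55335 rows, 3225 carried no gene symbol; 80 symbols stood on more than 1 row, and 26 symbols had been turned into dates.

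Genes passing filterByExpr (minimum count 10) over the 8 libraries were scaled by TMM and fitted together with edgeR 4.0.16 in R 4.3.3, by the quasi-likelihood test with Benjamini-Hochberg adjustment over all 17360 genes (residual degrees of freedom 4, prior 3.77). The threshold was an adjusted p of 0.05. Standard errors are approximate, taken as the change over the root of its F value. The procedure was first tested on simulated counts. DESeq2 1.42.0, limma-voom (limma 3.58.1), other scalings and filters, the replicate block and left-out libraries served as alternatives.

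Gene lists and the genes named were chosen with earlier results of these data known. Named were the ligand and receptor of TWEAK, the 20 largest rises and falls whose CPM averaged 5 or more in the 4 libraries, the largest gains and losses of CPM per kilobase, called genes with at most 3 counts in the lower group, up to 5 members per list role by p, its member with the highest CPM, the strongest member against the majority, and cell type markers. Positions and exon lengths are those of GENCODE M21, and promoters are RefSeq windows on GRCm38.p6.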

Additional observations from a re-analysis of the deposited data

Results flagged for a closer look

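Of the rows without a gene symbol, which enter no comparison above, 341 had enough counts to be tested and 36 were called between TWEAK10 and untreated cells by the edgeR test with Benjamini-Hochberg adjustment. They are listed only because these rows lie outside the main measurement: 24 of them were higher at TWEAK10 and 12 lower. The 36 are 10.6% of those tested, in a separate fit of all rows. Among tested genes with a symbol the share was 29.2% in the main fit. These shares were not matched for level, and the share called grew with the level. Their place in the genome was not analysed here.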

How the results depend on the processing

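The count of 5075 genes called between TWEAK10 and untreated cells, and its split into 2610 higher and 2465 lower, moved by less than 1.5 times under DESeq2 (5271), limma-voom (5235), DESeq2 size factors, library totals, other filters and a fit of only the 2 groups. Requiring an absolute log2 change of at least 1 left 1919 genes, 1027 higher and 892 lower. With library totals 55.3% of the calls were higher, against 51.4% with TMM. With 1 library left out the counts ranged from 3392 to 4839 in all, 1771 to 2513 higher and 1621 to 2390 lower; the low values came without untreated replicate 1. A lone sample is then assumed to vary like the other groups. Between TWEAK10 and TWEAK30, DESeq2 called 127 genes (26 higher, 101 lower), a fit of only the 2 groups 5 (2 higher, 3 lower) and a fit without both TWEAK100 libraries, chosen after seeing the data, 3 (1 higher, 2 lower). With 1 library left out 3 to 62 were called, 0 to 18 higher and 1 to 44 lower. Between TWEAK10 and TWEAK100, an absolute log2 change of at least 1 left 1249 genes (635 higher, 614 lower), and leaving out 1 library gave 2406 to 3545, 1185 to 1783 higher and 1221 to 1767 lower. Libraries thinned to the lowest total, also chosen after seeing the data, gave 5012 calls against untreated cells. The cause of these differences was not tested.

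The labels do not say whether libraries with the same replicate number belong together. Replicate differences of untreated and TWEAK10 correlated at 0, those of TWEAK10 and TWEAK30 at -0.13 and those of TWEAK10 and TWEAK100 at -0.08. Such correlations cannot tell whether the libraries shared a culture or animal. With the replicate block 4661 genes were called against untreated cells, 0 against TWEAK30 and 3340 against TWEAK100. Depth limits genes near 3 counts, which stand for 0.0599 to 0.0801 CPM.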
